A study of Sus scrofa with 4 samples.

Results

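Of the 18367 gene models with at least 1 read in heart, liver, lung or kidney of the pig, 198 were well represented in heart, lung and kidney and low in liver alone. These 198 models were chosen by their measured levels. A member had at least 10 RPKM (reads on the model, divided by its length and by the read total of the library) in heart, lung and kidney. On the RPKM + 1 scale, its lowest value among these 3 libraries was at least 5 times its liver value. Of 206 models that passed this rule, 8 were left out: 3 whose 2 highest libraries were both at least 5 times the others, 2 of 10000 bases or more, 1 of 250 bases or less, and 2 on the 3 scaffolds that the rule sets aside. The 198 were drawn from 5222 models that reached 10 RPKM in heart, lung and kidney and passed the same exclusions, which is 3.79% of them. Since the values themselves chose the members, their levels and folds are a description.

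The libraries came from the Tibetan breed of Sus scrofa, 1 library per tissue, and share an origin in the Ganzi prefecture of Sichuan. No treatment or genetic change is given, and the sources used here do not give age, sex, or whether the 4 tissues came from 1 animal. Reads on gene models numbered 14062622 in heart, 8853076 in lung, 5486480 in kidney, but 4090775 in liver. There was no replicate, so no difference below has a test against animal-to-animal spread, and intervals cover counting error only. Models carry identifiers of the form evm.model.scaffold followed by 2 numbers. No gene names stand beside these identifiers in the files, and 0 of them matched the reference tables, so marker genes of the labelled tissues could not be read, nor could the functions of the members be given.

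The liver consists mainly of hepatocytes, which make plasma proteins and enzymes of intermediary metabolism and put much of their mRNA into a small set of very abundant transcripts. Heart, lung and kidney are built from other main cells (cardiac muscle, airway and alveolar epithelium, tubular epithelium) together with vessels and connective tissue. RPKM expresses each model as a share of its library, so a library led by a few abundant transcripts leaves smaller shares for all the others. In whole-tissue RNA, fewer cells of a type and less RNA per cell cannot be told apart.

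Members were at middle to high level outside liver and mostly traceable in it. The median member stood at 40.8 RPKM in heart (range 10.2 to 15910), 44.0 in lung (10.2 to 1869), 33.7 in kidney (10.4 to 1343), but 2.10 in liver (0 to 44.0). The 5024 models that reached the same level minimum without being members had medians of 29.5 RPKM in heart, 40.0 in lung, 39.6 in kidney, but 20.01 in liver. Outside liver the members therefore lay above the others in heart and lung and below them in kidney, by these medians.

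**Figure D1:**
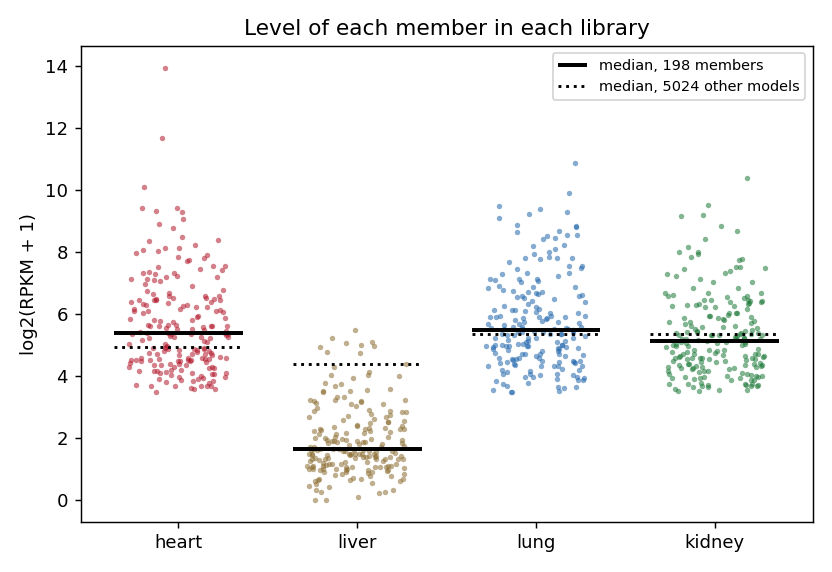
Level of each of the 198 members (points, log2(RPKM + 1)) in the 4 libraries, with the median of the members (solid line) and of the 5024 other models that reached 10 RPKM in heart, lung and kidney (dotted line). The medians of the members are 40.8, 44.0 and 33.7 RPKM in heart, lung and kidney and 2.10 in liver, where the other models have a median of 20.01.

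Ranks within a library do not depend on how that library is scaled. Among the 15357 models that reached 1 RPKM somewhere, the median member ranked at percentile 83.9 in heart, 79.96 in lung, 74.0 in kidney, but 34.1 in liver. For the 5024 other models the median percentile was between 76.9 and 78.6 in each of the 4 libraries. The typical member thus moved from the upper part of the ranking to its lower part in liver. The same levels chose the members and set the other models apart, so this shift was largely set by the rule. Which models are members does depend on the scaling.

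By reads, members made up 4.42% of the heart library (95% Clopper-Pearson interval 4.41 to 4.43), 3.78% of lung (3.77 to 3.79), 2.58% of kidney (2.57 to 2.59) and 0.168% of liver (0.164 to 0.172). A pair of members with very many heart reads supplied 33.6% of the members' heart reads. Without this pair the share in heart was 2.93% (2.92 to 2.94), between those of kidney and lung.

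The liver difference was similar in size against each of the 3 tissues. Its median was -3.28 against heart, -3.60 against lung and -3.10 against kidney, in log2(RPKM + 1). These correspond to 9.70, 12.1 and 8.58-fold lower levels. The 3 comparisons share the liver library, so they are not separate lines of evidence. Over all 5222 models at the level minimum the same medians were -0.70, -1.02 and -1.03. In the deposited values a general liver shift thus lay under the members' difference. After median-ratio scaling, described below, the medians of these 5222 models were -0.14, 0.10 and -0.03. With the shift of the deposited values subtracted, the members' median difference was -2.58 against heart, -2.58 against lung and -2.07 against kidney.

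The members were the tail of a continuous distribution. Measured against the lowest of the 3 other libraries, 104 members were 5 to 7-fold lower in liver on the RPKM + 1 scale, 59 were 7 to 10-fold lower and 35 were at least 10-fold lower, 7 of these by 20-fold or more. Between 5 and 6-fold there were 66 members, and just outside, between 4 and 5-fold, there were 87 models. The member nearest the limit had 49.6 RPKM in heart, 49.0 in lung, 64.8 in kidney, but 8.999 in liver, a fold of 5.005. The nearest model outside it had 23.4, 78.2, 17.9 and 2.81 RPKM in the same order, a fold of 4.97. At the level limit, the lowest member had 10.2 RPKM in lung, and a model with 9.92 RPKM in heart stayed out. No gap separated the members from their neighbours in level or in fold.

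**Figure D2:**
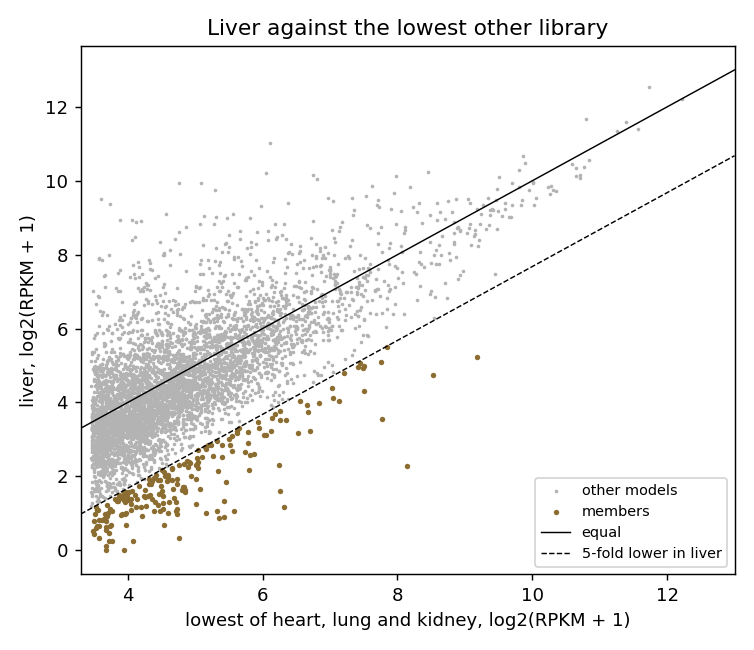
Liver level against the lowest level among heart, lung and kidney for the 5222 models at the level minimum, both in log2(RPKM + 1), with members in brown, the line of equal level (solid) and the 5-fold limit (dashed). The cloud of models is continuous across the limit, with 87 models between 4 and 5-fold and 66 members between 5 and 6-fold.

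Members kept a low but mostly measurable liver signal. In liver, 36 of the 198 were under 1 RPKM (2 of them at 0 reads), 59 between 1 and 2, 55 between 2 and 5, 24 between 5 and 10, and 24 at 10 RPKM or more. The median member had 14.5 liver reads (range 0 to 379), and 32 members had 3 or fewer. The liver level was a median of 10.4% of the lowest other level. By the exact interval of the ratio of 2 read counts, the lower bound of the lowest other library over liver was above 5-fold for 122 members and above 2-fold for 197. For the remaining member the lower bound was 1.99-fold. These intervals rest on the same counts that selected the members at 5-fold or more, so they lean high. Passing the 2-fold limit was largely set by the rule. The intervals also take the deposited library totals as exact, and the folds depended on the scaling, as given below.

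More strongly represented members also had more liver signal. The 78 members whose lowest other level was 10 to 20 RPKM had a liver median of 1.20 RPKM and 6 reads, and the 80 members at 20 to 50 RPKM had 2.83 RPKM and 17 reads. For the 21 members at 50 to 100 RPKM the liver median was 8.01 RPKM, and for the 19 at 100 RPKM or more it was 20.1 RPKM and 104 reads. The rule itself caps the liver level at about a constant fraction of the others, so this rise is built in. The median fold over the lowest other library stayed between 6.78 and 7.36 in the 4 ranges.

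A pair of members combined the highest levels outside liver with a low liver level, by the lowest of the 3 other values. The model evm.model.scaffold44392.1, of 2256 bases, had 625 RPKM in heart, 672 in lung, 580 in kidney, but 36.6 in liver. Its liver value rested on 338 reads, and kidney, its lowest other library, was 15.8 times higher (95% interval 14.2 to 17.7). This model was nearly level across the 3 other tissues, at percentile 98.5 or above in each and 85.9 in liver. The model evm.model.scaffold1235.28, of 519 bases, had 681 RPKM in heart, 370 in lung, 457 in kidney, but 25.9 in liver (55 reads), with lung 14.3 times liver (10.9 to 19.02). Both therefore still ranked above most models of the liver library, the second at percentile 81.2.

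Evenness among the other tissues varied widely. In 71 members (35.9%) heart, lung and kidney lay within 2-fold of each other, in 80 the highest was 2 to 5 times the lowest, in 25 it was 5 to 10 times, and in 22 it was 10 times or more. Among the 5222 models at the level minimum, 38.9% lay within 2-fold and 5.06% were 10-fold or more apart. The median ratio of highest to lowest was 2.66 in members and 2.35 in these models. The most even member was evm.model.scaffold22631.36, with 27.2 RPKM in heart, 27.6 in lung, 27.2 in kidney, but 2.28 in liver (8 reads). Next came evm.model.scaffold45219.31, with 16.2 RPKM in heart, 16.8 in lung, 16.9 in kidney, but 1.83 in liver (24 reads). In both, every other tissue stood about equally far above liver, at 11.9 to 12.1-fold for the first and 8.85 to 9.26-fold for the second.

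A smaller class combined a low liver level with a marked excess in 1 other tissue. In 22 members (11.1%) a single library was at least 5 times both others of heart, lung and kidney on the RPKM + 1 scale, 12 of them in heart, 6 in lung and 4 in kidney. Among the 5222 models at the level minimum, 201 (3.85%) had such an excess, with liver left out of the comparison in both sets. With liver also compared, the wider set had 166, of which 83 were led by lung (1.59% of the 5222), 56 by heart (1.07%) and 27 by kidney (0.517%). The 12 heart-led members had a median of 292 RPKM in heart, 18.2 in the next library and 1.07 in liver.

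The heart-led members included the largest ratio to liver of all. Here and for lung and kidney, models were ranked by the ratio on the RPKM + 1 scale, and by the plain ratio some members with 1 to 3 liver reads would rank higher than the second model named in heart and lung and than both in kidney. The model evm.model.scaffold46301.10, of 636 bases, reached 15910 RPKM in heart against 15.3 in lung, 12.3 in kidney, but 1.15 in liver (3 reads). Heart was 13798 times liver, with a counting interval of 4721 to 66907 that the 3 liver reads leave wide. The model evm.model.scaffold42051.25, of 1425 bases, had 3322 RPKM in heart, 50.1 in lung, 24.2 in kidney, but 2.74 in liver (16 reads). In both, liver was the lowest of 4 libraries of which 3 were low compared with heart, and kidney exceeded liver 10.7-fold (3.42 to 53.9) and 8.81-fold (5.28 to 15.7).

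Lung and kidney had their own high ratios. The model evm.model.scaffold28967.1, of 391 bases, had 1869 RPKM in lung, 77.3 in heart, 44.8 in kidney, but 6.25 in liver (10 reads), so lung was 299 times liver (162 to 624). The model evm.model.scaffold4980.2, of 2346 bases, had 732 RPKM in kidney, 20.4 in lung, 11.8 in heart and 0.729 in liver (7 reads), so kidney was 1004 times liver (487 to 2497). The model evm.model.scaffold45616.18, of 3555 bases, had 590 RPKM in kidney, 97.5 in lung, 40.0 in heart and 0.825 in liver (12 reads). These 3 models were dominated by 1 tissue, and liver was the lowest library in each.

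The member with the largest fold over its lowest other library was also the second by lung ratio on the RPKM + 1 scale. The model evm.model.scaffold46016.12, of 816 bases, had 1343 RPKM in kidney, 633 in lung, 282 in heart and 3.89 in liver (13 reads). On the RPKM + 1 scale its lowest other library stood 57.8-fold above liver, and by the ratio of counts heart exceeded liver 72.4-fold (42.3 to 136). All 3 other tissues lay far above liver, with kidney highest.

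Among the 198 members, 2 had no liver read, and they were singled out after their values were seen. The model evm.model.scaffold15391.1, of 387 bases, had 87.5 RPKM in heart, 16.3 in lung and 11.8 in kidney. Against a floor of 3 counts in the liver library, which is 1.89 RPKM at this length, kidney was 6.21-fold higher. The floor lies under the upper end of the exact 95% interval for 0 reads, 2.33 RPKM, so that fold is not a lower bound. The exact 95% interval of the ratio, which also covers the error of the kidney count, began at 4.69. The model evm.model.scaffold35060.2, of 1392 bases, had 19.7 RPKM in heart, 33.4 in lung and 14.4 in kidney. Its kidney level was 27.3-fold above its liver floor of 0.527 RPKM, and the exact lower bound was 21.9. The longer of these models gives the stronger limit, because the same number of reads is worth less RPKM over more bases.

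The rule used the order of heart, lung and kidney in part, through the lowest of the 3 values and by leaving out models high in 2 libraries alone, so the following counts are a description as well. The highest library was lung in 89 members, heart in 65 and kidney in 44. Among the 5222 models at the level minimum, lung was highest in 41.3%, kidney in 38.5% and heart in 20.2%, against 44.9%, 22.2% and 32.8% of members. The lowest of the 3 was kidney in 94 members (47.5%), heart in 62 (31.3%) and lung in 42 (21.2%), against 22.7%, 48.7% and 28.6% of the 5222 models. By these shares kidney was the lowest of the 3 more than any other tissue among members, while heart was so in the wider set.

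Pairwise counts gave the same picture in fuller form. Heart stood at least 2-fold above kidney in 51 members (25.8%), against 9.08% of the models at the level minimum, and kidney above heart in 27 members (13.6%), against 22.7%. Lung stood above kidney in 57 members (28.8%), against 16.4%, and kidney above lung in 19 (9.60%), against 18.3%. Heart stood above lung in 40 members (20.2%), against 12.7%, and lung above heart in 50 (25.3%), against 26.8%. The shares in which kidney exceeded another tissue were thus below those of the wider set in both pairs, and the share in which lung exceeded heart was near it.

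**Figure D3:**
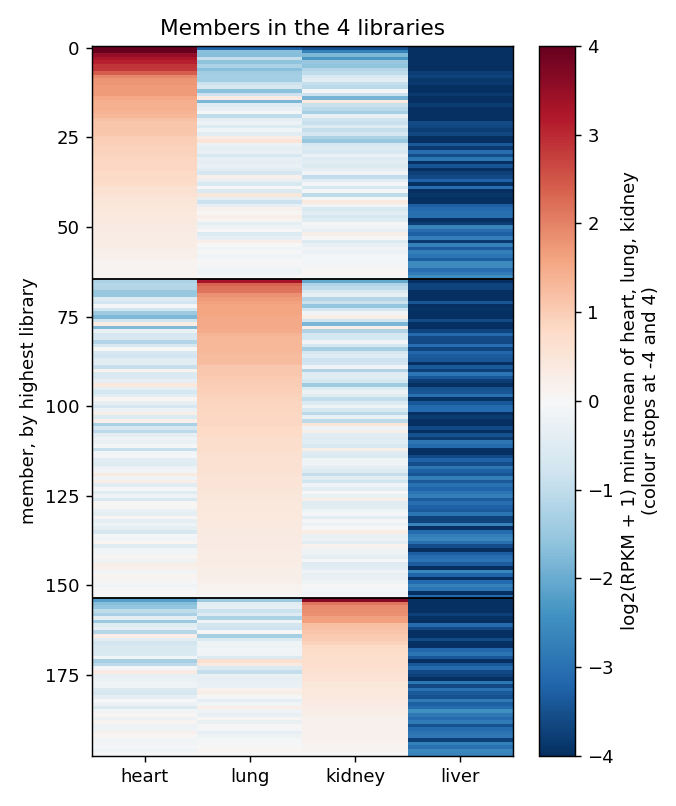
Each row is 1 of the 198 members and each column a library, coloured by log2(RPKM + 1) minus the mean of heart, lung and kidney for that member. Rows are grouped by the highest of the 3 libraries (heart 65, lung 89, kidney 44, divided by black lines) and sorted by its excess, and the liver column is blue throughout.

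Median-ratio scaling changed part of this order. This scaling sets the typical model to the same level in every library, using the 10247 models detected above 1 RPKM throughout, and its divisors were 0.927 for heart, 0.614 for liver, 1.38 for lung and 1.27 for kidney. The highest library was then heart in 104 members, lung in 64 and kidney in 30. Heart thereby replaced lung as the library most often highest among members, and it did so in the 5222 models as well, where heart was then highest in 38.4%, kidney in 32.2% and lung in 29.5%. With the same 198 members held fixed, kidney remained the most frequent lowest library, with 103 members (52.0%), against 30.8% of the 5222 models. The lowest library of the wider set was then most often lung, at 42.8%, in place of heart.

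**Figure D4:**
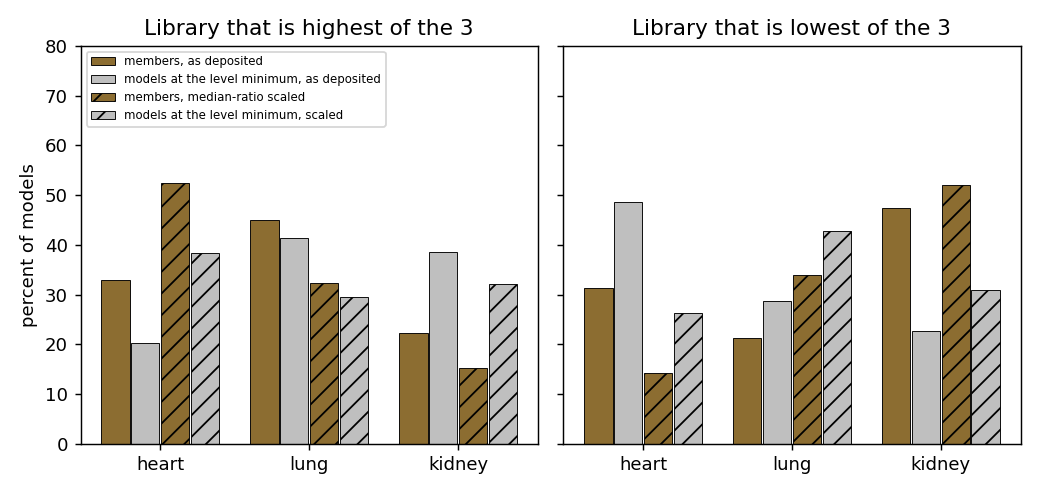
Percent of members (brown) and of the 5222 models at the level minimum (grey) in which heart, lung or kidney is the highest (left) or the lowest (right) of the 3, as deposited (plain) and after median-ratio scaling (hatched). Members are the same 198 under both scalings. Kidney is the lowest in 47.5% of members as deposited and 52.0% after scaling, against 22.7% and 30.8% of the wider set.

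The number of members depended more on the scaling than on thinning to equal depth. After median-ratio scaling 51 models met the rule, 49 of them among the 198, and 149 members no longer did. All 198 were then still at least 2-fold lower in liver than in their lowest other library and 163 at least 3-fold, with a median of 4.11-fold. Totals that left out the 302 models forming the 100 of most reads of any library, a set with 57.9% of liver, 42.5% of heart, 27.9% of kidney and 23.8% of lung reads, gave 78 models, 75 of them members. This last choice was made after seeing the data. Scaling each library to the same sum of RPKM gave 174 models, 169 of them members. Thinning all libraries to the liver total gave 195 models, 180 of them members. The liver library itself was left unchanged by this, so the effect of its few reads was not tested.

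The 49 members that met the rule under both scalings were those with larger folds. Their median fold was 11.9 on the RPKM + 1 scale (6.53 to 57.8), against 6.24 (5.005 to 12.8) for the other 149. They had a median liver level of 1.29 RPKM against 2.68, and a median length of 1800 bases against 1374. In the deposited values, the lowest other library was heart in 22 of the 49, kidney in 17 and lung in 10. Among the other 149 it was kidney in 77, heart in 40 and lung in 32. Kidney was thus the most frequent lowest library among the 149 but not among the 49. Of the models named so far, evm.model.scaffold44392.1, evm.model.scaffold1235.28, evm.model.scaffold46016.12, evm.model.scaffold4980.2, evm.model.scaffold45616.18 and evm.model.scaffold35060.2 were among the 49. Neither of the 2 most even members was, nor were evm.model.scaffold46301.10, evm.model.scaffold42051.25 and evm.model.scaffold28967.1. The model evm.model.scaffold15391.1 also dropped out, because its lowest scaled level was 9.30 RPKM, under the minimum.

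**Figure D5:**
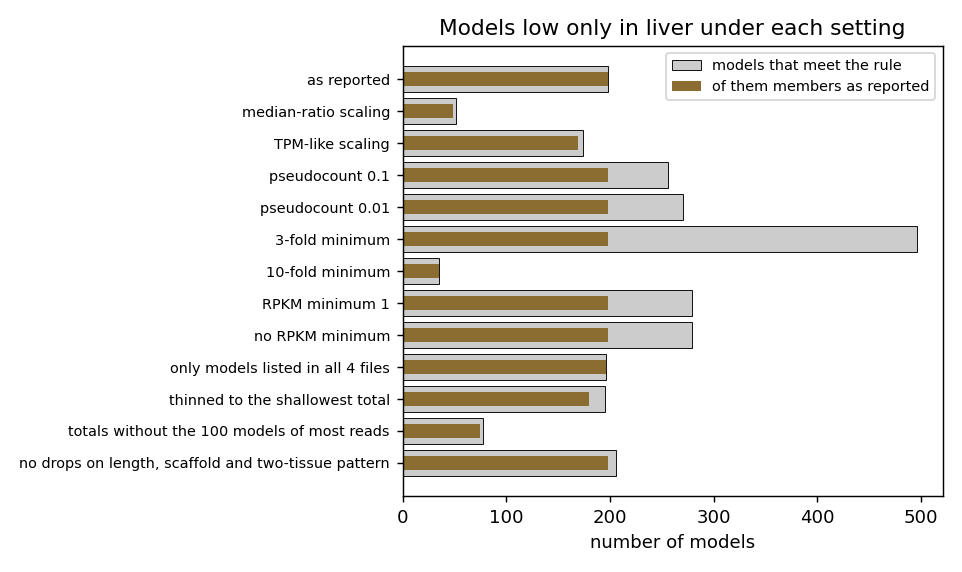
Number of models that met the rule under each setting (grey bars) and how many of them were among the 198 members (brown bars). Median-ratio scaling leaves 51 models, a 3-fold minimum gives 496 and a 10-fold minimum 35, while thinning to equal depth gives 195.

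Applied with another tissue as the low one, the same rule gave fewer models in the deposited values. Low only in heart were 89 of 4367 models at the corresponding minimum (2.04%), low only in lung 55 of 4121 (1.33%) and low only in kidney 13 of 3967 (0.328%). The median fold was 6.90 for liver, below the 9.59 for heart and 8.93 for lung and near the 7.03 for kidney. At 10-fold or more there were 42 models low in heart against 35 low in liver. After median-ratio scaling the shares were 1.07% for liver, 1.62% for heart, 2.71% for lung and 0.593% for kidney, so liver no longer had the most. The larger number of models low only in liver thus holds for the deposited scaling and not for the median-ratio scaling.

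Members were somewhat longer than the models they were drawn from. Their median length was 1473 bases (range 257 to 7296), against 1266 for the 5222 models. Members were 3.76% of models of 250 to 600 bases, 2.24% at 600 to 1200, 4.20% at 1200 to 2000, 4.77% at 2000 to 3000 and 5.62% at 3000 to 10000. The general liver difference of the deposited values also moved with length. In models that were not members, the excess of heart, lung and kidney together over liver was taken in log2(RPKM + 1). Its median was 0.74 at 250 to 600 bases and 1.12 at 3000 to 10000. The part of this in the members' lengths was not tested. Counting precision rose with length as well, from a median of 4.5 liver reads in the shortest members to 33 in the longest.

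Members were spread over the assembly. The 198 lay on 177 scaffolds, 162 of which held a single member. The highest number on 1 scaffold was 5. Only 9 members had another member next to them in the numbering of models on a scaffold, in 1 run of 3 and 3 runs of 2. The sources used here do not say whether this numbering follows position. Each pairing of a model with a neighbour in number among the 5222 models was counted. Of the neighbours of members, 10 of 95 (10.5%) were members, against 85 of 2789 (3.05%) for neighbours of the other models. The 10 count each pair of adjacent members from both sides and all come from the 9 members in the runs above, so few separate events underlie them. The neighbours that were not members exceeded liver in the mean of the 3 other tissues by a median of 0.96 in log2(RPKM + 1), against 0.89 for all such models, a difference small beside the members' own median of 3.56.

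The run of 3 held models of unlike level. The model evm.model.scaffold24246.18, of 900 bases, had 266 RPKM in heart, 345 in lung, 181 in kidney, but 30.96 in liver. The last of the run, evm.model.scaffold24246.20, of 378 bases, had 300 RPKM in heart, 349 in lung, 215 in kidney, but 33.0 in liver. These profiles were close in all 4 libraries, whereas the short model between them had 15.5 to 18.8 RPKM outside liver and 2 reads in it. Whether the first and last are separate genes or share reads was not tested.

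Of the 3 runs of 2, the one of highest mean level paired models of different pattern. The model evm.model.scaffold18505.16 had 80.3 RPKM in heart, 93.0 in lung, 82.0 in kidney, but 10.5 in liver. Its neighbour evm.model.scaffold18505.17 had 59.5 RPKM in heart, 19.04 in lung, 102 in kidney, but 1.81 in liver (4 reads). The first was nearly even outside liver and the second was 5.34-fold higher in kidney than in lung, so adjacency did not bring a shared order of tissues here. None of the 4 models named from these runs met the rule after median-ratio scaling.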

How the data were processed

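Total RNA of heart, liver, lung and kidney was extracted with Trizol and made into Illumina TruSeq libraries, per the labels' protocols. TopHat is named in the submitters' processing notes without a version. Not given in the sources used here are the counting program, how it handled strand and multiply matching reads, the genome build, and the gene annotation. Per the file headers, the authors deposited for each library a read count and an RPKM per gene model, with model length and library total. The deposited counts summed to the stated totals, and the deposited RPKM equalled count divided by length and total within a relative tolerance of 1e-12. Models missing from a file were taken as 0.

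Of all lengths, 89.5% were multiples of 3, so most are coding lengths. For a model of 1278 bases, the median, a single read equals 0.191 RPKM in liver and 0.0556 in heart. Members were found with the level, fold, length and scaffold limits given above, with a pseudocount of 1 RPKM. Differences are on the log2(RPKM + 1) scale, which understates folds of low models. Printed ratios with intervals use no pseudocount. Intervals are exact at 95% (Poisson, or Clopper-Pearson for shares and ratios). With 1 library per tissue no test was run. The rule was checked on simulated counts in which all 4 libraries shared 1 profile apart from set changes in liver. That check did not cover libraries that differ in composition, as these do.

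Named were the 2 members of highest lowest-of-3 level, the 2 of largest (RPKM + 1) ratio to liver for each other tissue, the 2 most even, and the ends of the 2 longest runs (ties broken by mean level, a choice made after seeing the data). Members and rules were chosen with earlier results of these data known. Alternatives covered scaling, pseudocount, fold, level minimum, missing models, exclusions and depth. Computations used numpy 2.4.6, pandas 2.3.3 and scipy 1.17.1 under Python 3.11.15, with figures from matplotlib 3.10.9.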

Additional observations from a re-analysis of the deposited data

How the results depend on the processing

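No paired analysis was possible because there were no replicates, and leaving out a library was not possible either. Of 12 alternatives for the count of members, 8 stayed within 1.5 times of 198. These 8 are not all separate checks. A level minimum of 1 RPKM and no minimum gave the same 279 models. Keeping only models listed in all 4 files could remove only the 2 members without a liver read. Median-ratio scaling gave 51, totals without the most abundant models 78, a 3-fold minimum 496 and a 10-fold minimum 35. For models low only in heart (89), the 3-fold minimum gave 207 and the 10-fold minimum 42. For lung (55), median-ratio scaling gave 131, the totals without the most abundant models 108, the 3-fold minimum 134 and the 10-fold minimum 19. For kidney (13), median-ratio scaling gave 27, the 3-fold minimum 30, the 10-fold minimum 0, and a level minimum of 1 RPKM or none 20. With the 198 members held fixed, median-ratio scaling moved their median level to 3.42 RPKM in liver, 44.0 in heart, 31.8 in lung and 26.6 in kidney. The median liver difference went to -2.92 against heart, -2.65 against lung and -2.29 against kidney under that scaling, to -3.85, -4.14 and -3.61 with a pseudocount of 0.1, and to -3.91, -4.20 and -3.68 with 0.01. It stayed within 0.1 after thinning. Median-ratio scaling made heart highest in 104 members and lowest in 28, lung lowest in 67, lung at least 2-fold above heart in 30, and kidney above heart in 16. Members with an adjacent member rose from 9 to 34 at a 3-fold minimum, where more models qualify. For single named models, 32 recomputed log2 ratios to liver included 19 inside the counting interval, 13 outside it and 0 of opposite sign. All 13 came from median-ratio scaling, and every value with a pseudocount of 0.1 lay inside. The interval is that of the plain ratio, whereas the recomputed values include a pseudocount. For evm.model.scaffold4980.2, evm.model.scaffold45616.18 and evm.model.scaffold35060.2, the unscaled value on the RPKM + 1 scale already lay under it. A change of sign was unlikely, since members were chosen at 5-fold or more. Depth limits the weakest members most: 32 had 3 or fewer liver reads.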

Other observations

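One scaffold stood out by its number of members, and it was singled out after the counts were seen. On scaffold21782, 5 of the 12 models at the level minimum were members, against 3.79% over all scaffolds. Their liver levels were 1.15, 2.04, 2.31, 4.79 and 11.04 RPKM, on 5, 6, 12, 10 and 66 reads. In the same order their folds were 12.4, 5.50, 6.83, 5.90 and 5.87. No member under 6.53-fold met the rule after median-ratio scaling, so the number here depended on the deposited scaling. For the 7 other models at the level minimum there, the lowest other library stood between 0.55 and 1.70 times liver on the RPKM + 1 scale, and 0 of them reached 2-fold. The 5 members did not share an order of the other tissues. The one of largest fold (12.4) was led by heart, with 150 RPKM there, 43.7 in lung and 25.6 in kidney. Another was led by lung, with 140 RPKM there, 33.2 in heart and 39.7 in kidney.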
